A study of Mus musculus with 2 samples.

Results

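Histone genes whose symbols begin with Hist1h, Hist2h, Hist3h or Hist4h were followed through the cell classes of the early postnatal mouse dentate gyrus. Every feature whose symbol matched that pattern was taken, 67 of 32285. Of these, 54 belong to the Hist1 cluster on chromosome 13, 10 to the Hist2 cluster on chromosome 3, 2 to Hist3 on chromosome 11 and 1, Hist4h4, to chromosome 6. By protein, 6 encode linker histone H1, 18 encode H2A, 18 H2B, 12 H3 and 13 H4. Histone variants with other symbols, such as H2afz or H3f3b, are not matched by the pattern and are given apart, as a list.

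The study profiled dissociated cells of the dentate gyrus at postnatal day 5 with 10x Genomics 3′ single-cell RNA sequencing. The control library came from wild type mice and the Setdb1_cKO library from mice with a conditional knockout of Setdb1, which encodes a histone H3 lysine 9 methyltransferase. There was 1 library per genotype. The sources used here do not give the Cre driver, the deleted exons, the number of animals pooled or their sex, so it is not known which cells had undergone deletion. All differences below are therefore between these 2 libraries, no test across genotypes was possible, and intervals are 95% intervals for counting error only. UMIs of cells that vary widely among themselves scatter more between samples than such an interval shows.

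A nucleosome is an octamer of core histones H2A, H2B, H3 and H4 around which DNA is wrapped, and linker histone H1 binds where the DNA enters and leaves it. Replication-dependent histone genes are switched on in S phase, when new DNA has to be packaged, and their mRNAs classically end in a conserved stem-loop in place of a poly(A) tail. The stem-loop is bound by Slbp, which governs processing, translation and decay of the mRNA at the end of S phase. Variant histone genes such as H3f3b are transcribed throughout the cell cycle as polyadenylated mRNAs, and in postmitotic neurons variants take over much of histone replacement. The libraries here were made from poly(A) RNA, so a histone transcript was counted as far as the assay could prime on it.

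The stem-loop is shown for 7 members whose levels are described below, among them the Hist3 pair that led in neurons and H1, H2A and H4 members that were high in cycling cells. A search of the GENCODE vM21 transcripts for a stem of 6 paired bases starting with GG and a loop of 4 bases starting with TT (G pairing with C or T) found it in an annotated transcript of 44 of the 67 members. By comparison, 3.73% of all 141767 annotated transcripts held a match. In capitals is the stem-loop of 16 bases, with 5 bases on either side, as DNA letters of the transcript strand, 5′ to 3′.
Hist3h2ba: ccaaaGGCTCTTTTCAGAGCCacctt
Hist3h2a: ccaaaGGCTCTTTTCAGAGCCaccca
Hist1h2ap: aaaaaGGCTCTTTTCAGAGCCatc
Hist1h2ae: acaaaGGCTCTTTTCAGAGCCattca
Hist1h1e: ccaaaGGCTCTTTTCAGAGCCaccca
Hist1h4d: ccaaaGGCCCTTTTCAGGGCCactac
Hist1h4h: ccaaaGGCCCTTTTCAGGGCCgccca
Of these 7, the H1, H2A and H2B members share the same 16 bases, which 26 of the 44 members hold, and both H4 members carry the form found in 7. The annotated transcript of Hist1h2ap ends 3 bases after the stem-loop, as a processed histone mRNA would. By contrast, the Hist3h2ba transcript runs on for 169 bases and that of Hist3h2a for 1643. The Hist1h2ae transcript runs on for 151 bases, that of Hist1h4d for 770 and that of Hist1h1e for 1153. A poly(A) signal (AATAAA or ATTAAA) started within 50 bases of an annotated end in 17 members, Hist3h2ba, Hist3h2a, Hist1h2ae, Hist1h1c and Hist1h4h among them, and in 33.7% of all annotated transcripts. The other 23 members, among them Hist1h1b and Hist1h2bc, had no match in their annotated transcripts, which says only that these letters are not in those models.

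Promoters (250 bases before to 50 after the annotated start, RefSeq, build GRCm38.p6) are printed for the pair of Hist3 genes that led in neurons and for Hist1h1b and Hist1h2ap, a linker and an H2A member that were high in cycling cells. In capitals are matches on either strand to the CCAAT box, to the TATA sequence TATAAA and to ATTTGCAT, the octamer known from H2B promoters.
Hist3h2ba, chr11:58948661-58948960, plus strand: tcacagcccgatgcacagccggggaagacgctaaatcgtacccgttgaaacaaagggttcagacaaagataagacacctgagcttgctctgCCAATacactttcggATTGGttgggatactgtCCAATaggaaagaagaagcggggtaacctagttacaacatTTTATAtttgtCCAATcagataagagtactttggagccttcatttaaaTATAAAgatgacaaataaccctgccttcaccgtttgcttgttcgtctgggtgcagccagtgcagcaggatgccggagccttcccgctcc
Hist3h2a, chr11:58954435-58954734, plus strand: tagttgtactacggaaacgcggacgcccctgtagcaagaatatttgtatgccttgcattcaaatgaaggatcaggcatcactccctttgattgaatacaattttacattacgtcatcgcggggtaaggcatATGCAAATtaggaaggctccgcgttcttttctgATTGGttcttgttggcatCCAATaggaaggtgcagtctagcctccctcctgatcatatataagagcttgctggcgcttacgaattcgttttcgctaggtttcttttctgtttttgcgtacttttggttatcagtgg
Hist1h1b, chr13:21780576-21780875, minus strand: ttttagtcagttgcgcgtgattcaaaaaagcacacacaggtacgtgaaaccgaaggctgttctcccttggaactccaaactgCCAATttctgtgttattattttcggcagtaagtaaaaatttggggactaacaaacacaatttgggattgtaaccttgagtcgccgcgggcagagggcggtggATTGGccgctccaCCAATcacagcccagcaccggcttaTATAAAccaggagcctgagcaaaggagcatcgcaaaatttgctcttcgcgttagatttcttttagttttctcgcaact
Hist1h2ap, chr13:21833426-21833725, minus strand: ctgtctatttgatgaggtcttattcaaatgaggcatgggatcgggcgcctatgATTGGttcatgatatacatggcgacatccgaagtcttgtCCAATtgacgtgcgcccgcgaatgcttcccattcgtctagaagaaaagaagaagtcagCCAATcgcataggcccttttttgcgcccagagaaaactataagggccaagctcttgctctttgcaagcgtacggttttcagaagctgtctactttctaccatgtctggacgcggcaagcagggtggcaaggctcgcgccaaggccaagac
Promoters were found for 62 of the 67 members (63 in all). The octamer lay in 7 of 17 H2B and 7 of 18 H2A promoters and in none of the 6 H1, 10 H3 and 12 H4 promoters, against 1.74% of all 32851 promoters in the table. CCAAT or its complement lay in every promoter of H1, H2A, H2B and H3 in the table and in 3 of 12 of H4, against 37.4% of all. TATAAA lay in 35 of the 63 (55.6%), against 13.6% of all. A match is a run of letters, and binding was not measured.

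After filtering, 10816 control and 9424 Setdb1_cKO cells with medians of 5933 and 6987.5 UMIs were kept, and 68 barcodes occurred in both libraries. Setdb1 itself gave 3105 UMIs in control and 1572 in Setdb1_cKO, a ratio of 0.477 (0.448 to 0.507) per total UMI. The ratio lay below 1 with its whole interval in radial glia, intermediate progenitors, astrocytes and all 4 neuron classes, and included 1 in oligodendrocyte progenitors, microglia, endothelial cells and fibroblasts. Xist gave 16 UMIs in control and 95311 in Setdb1_cKO, and the Y-linked Ddx3y 4178 and 0, so genotype and sex cannot be told apart here.

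Cells were placed in classes by UMIs of marker genes that are not histone genes, and the cell classes of the progenitors were divided by Mki67+Top2a, at least 1 UMI marking a cell as cycling. Eomes marked intermediate progenitors, Slc1a3+Hes5+Sox9 radial glia, and further Aqp4+Aldh1l1+Gja1+S100b astrocytes. Dcx+Stmn2+Neurod1 without Eomes marked neuroblasts, and in addition Rbfox3+Syt1+Snap25 and Prox1 marked granule neurons. The intermediate progenitor gate set no upper limit on neuronal markers. Its cells had medians of 9 (control) and 10 (Setdb1_cKO) Dcx+Stmn2+Neurod1 UMIs, against 18 and 19 in neuroblasts. The median of Rbfox3+Syt1+Snap25 was 2 UMIs in both classes. Of markers no gate had used, 5 of 6 were highest in intermediate progenitors in both libraries, but in radial glia only 4 of 8 in control and 2 of 8 in Setdb1_cKO. Hopx (701 against 814 CPM), Sox2 (587 against 678 CPM) and Fabp7 (8901 against 19631 CPM) were lower in Setdb1_cKO radial glia than in astrocytes. In granule neurons 2 and 3 of 8 such markers were highest, and markers of mature granule cells such as Calb1 (28.2 and 33.1 CPM) and C1ql2 (2.24 and 8.23 CPM) were low. The cells gated on Neurod6 with little Prox1 had 1 of 8 pyramidal or mossy cell markers highest and are called Neurod6 neurons only. A further 15.9% of control and 14.0% of Setdb1_cKO cells met no gate.

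Of the 67 members, 63 had a UMI in a kept control cell and 62 in a kept Setdb1_cKO cell. Over both libraries 48 members had at least 100 UMIs, 15 had 1 to 99 and 4 had none. Those at 0 were Hist2h2aa2, Hist1h2bq, Hist1h2aa and Hist1h2ba, the last 2 being testis histone genes, and a count of 0 allows a level of up to 0.0413 CPM in control and 0.0388 in Setdb1_cKO. The testis linker histone Hist1h1t had 12 UMIs in control and 0 in Setdb1_cKO. Histone UMIs were concentrated in few members: the top 5 (Hist3h2ba, Hist1h1b, Hist1h2ap, Hist1h1e and Hist1h2ae) held 62.1% and the top 10 held 83.1%. Hist1h2ap and Hist1h2ao, Hist2h2aa1 and Hist2h2aa2, and Hist1h4m and Hist1h4n are near-identical copies whose reads may have been assigned to one or discarded, so their levels are uncertain. The same holds for Hist1h2be and Hist1h1e, and for Hist3h2a and Trim17, whose annotations overlap on the same strand. Levels below are UMIs per 1000000 UMIs of a class (CPM). A 3′ UMI count does not scale with transcript length, and capture may differ between members, so levels are compared between classes for a member and not between members.

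Cycling progenitors carried about 5 to 6 times the summed histone level of non-cycling ones in each library. In cells gated as radial glia the control level was 3200 CPM in cycling against 669 CPM in non-cycling cells, a ratio of 4.79 (4.62 to 4.96). In Setdb1_cKO it was 3645 against 585 CPM, a ratio of 6.23 (5.94 to 6.53). In intermediate progenitors it was 4506 against 858 CPM in control (ratio 5.25, 5.09 to 5.42) and 4146 against 676 CPM in Setdb1_cKO (6.13, 5.86 to 6.42). The non-neuronal lineages showed the same order of cycling over non-cycling cells. The ratio was 3.53 and 4.11 in astrocytes, 4.22 and 6.43 in oligodendrocyte progenitors and 5.93 and 9.60 in microglia or macrophages (control and Setdb1_cKO). It was 4.77 and 3.70 in endothelial cells, from 37 and 26 cycling cells, and 4.83 and 12.4 in fibroblasts, from 17 and 16. Cycling cells were also deeper (medians of 8815 against 6538 UMIs in control intermediate progenitors), and since a deeper cell more readily shows 1 Mki67 or Top2a UMI, the gate was also applied to cells thinned to 2000 UMIs, after the data had been seen: the control ratio was then 5.42 in radial glia and 5.76 in intermediate progenitors.

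**Figure D1:**
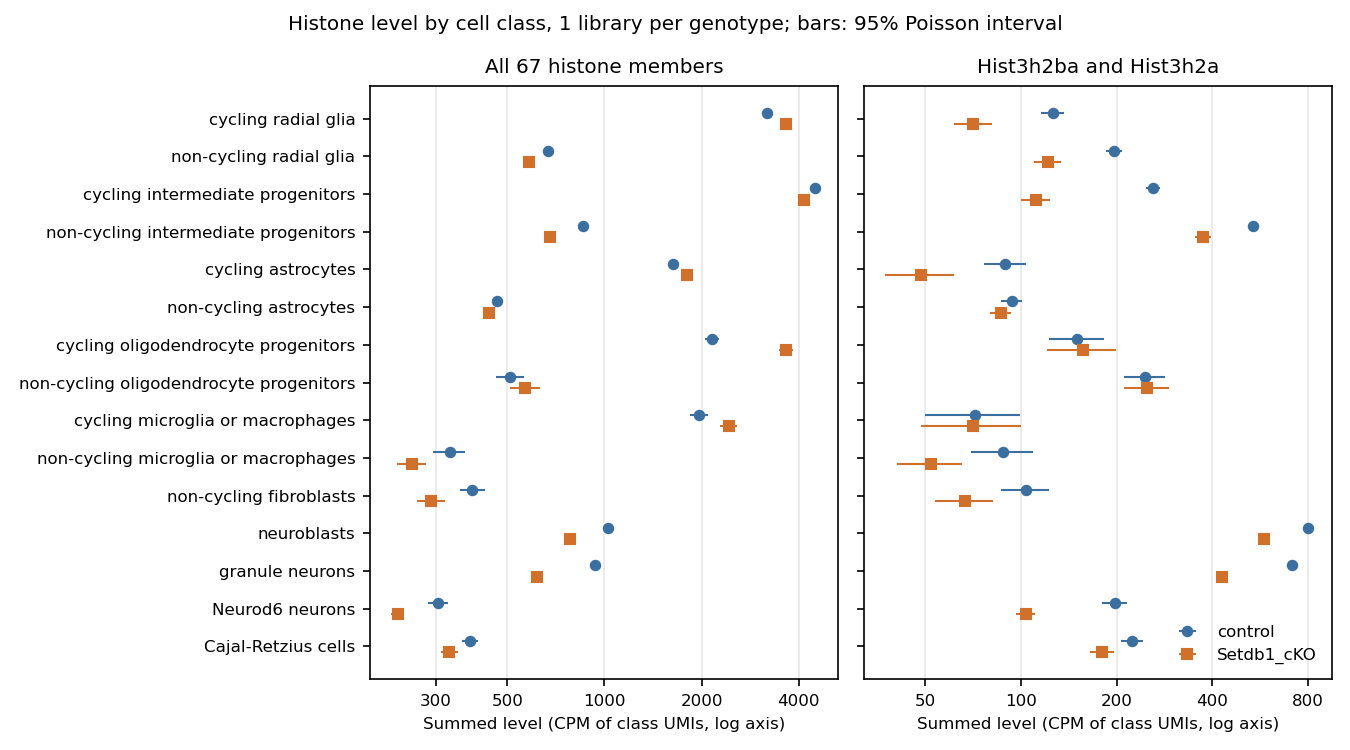
Summed level of all 67 histone members (left) and of Hist3h2ba with Hist3h2a (right) in each class of at least 50 cells in both libraries, in CPM on a log axis, with 1 point per library and 95% Poisson intervals. Cycling classes sit at 1637 CPM and above for all members, while the Hist3 pair is highest in neuroblasts (800 CPM in control and 583 CPM in Setdb1_cKO).

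Most measured members took part. Members and other genes were taken as measured where the 2 sides of a comparison held 30 UMIs or more together, and as higher or lower where their levels differed by at least 1.5-fold. In control radial glia 34 of 39 measured members were higher in cycling cells, against 10.1% of all 11603 measured genes, and 1 was lower, against 15.6%. In Setdb1_cKO radial glia 31 of 35 were higher (12.3% of all measured genes) and 2 lower (18.7%). In control intermediate progenitors 42 of 45 were higher (13.8% of all) and 2 lower (17.4%), and in Setdb1_cKO 33 of 36 higher (15.3%) and 2 lower (16.4%). For radial glia the median log2 ratio over the measured members was 2.56 in control and 2.66 in Setdb1_cKO, and for intermediate progenitors 3.49 and 3.73, where that of all measured genes lay between -0.10 and -0.04. A member that was measured only through its cycling cells had to lie on the high side, so these counts describe the measured members alone.

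In the other dividing lineages fewer members were measured. In astrocytes 19 of 27 were higher in cycling cells of control (10.7% of all measured genes) and none lower (8.7%), and 18 of 25 higher in Setdb1_cKO (10.6%) and 3 lower (11.8%). In oligodendrocyte progenitors 10 of 13 were higher in control (9.92%) and 1 lower (9.91%), and 8 of 11 higher in Setdb1_cKO (10.5%) and 1 lower (12.1%). In microglia or macrophages 9 of 11 were higher in control (11.9%) and 1 lower (10.3%), and 10 of 12 higher in Setdb1_cKO (14.5%) and none lower (10.2%). The Hist3 pair varied between lineages: its ratio of cycling to non-cycling cells was 0.613 and 0.626 in oligodendrocyte progenitors, 0.816 (0.533 to 1.23) and 1.36 (0.867 to 2.08) in microglia or macrophages and 1.72 (1.09 to 2.61) and 1.14 (0.658 to 1.89) in fibroblasts (control and Setdb1_cKO).

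Among linker histones, Hist1h1b showed the widest contrast at high level. In intermediate progenitors it stood at 840 CPM in cycling and 14.9 CPM in non-cycling control cells, a ratio of 56.3 (45.4 to 70.6), and at 958 and 14.5 CPM in Setdb1_cKO, a ratio of 66.1 (49.4 to 90.4). Hist1h1a followed that course from 73.0 to 2.11 CPM in control and from 61.7 to 0.946 CPM in Setdb1_cKO. By contrast, Hist1h1e, the linker histone that also persists in non-dividing cells, kept 55.3 CPM (control) and 57.4 CPM (Setdb1_cKO) in non-cycling intermediate progenitors, from 472 and 467 CPM in cycling ones. Hist1h1c stood at 97.5 and 23.0 CPM in control and 78.7 and 12.9 CPM in Setdb1_cKO.

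Among H2A members, Hist1h2ap had 675 CPM in cycling and 9.31 CPM in non-cycling control intermediate progenitors, a ratio of 72.5 (55.3 to 97.0), and 776 against 12.3 CPM in Setdb1_cKO (63.2, 46.1 to 89.0). Hist1h2ae had 753 against 15.6 CPM in control (48.2, 39.1 to 60.1) and 524 against 16.7 CPM in Setdb1_cKO (31.4, 23.9 to 42.1). Hist1h2ab was almost confined to cycling cells, with 452 UMIs in cycling and 9 in non-cycling control intermediate progenitors and 188 and 0 in Setdb1_cKO. Of the H3 members, which encode the replicative forms of the core histone that carries lysine 9, Hist1h3c had 422 UMIs in cycling and 5 in non-cycling control intermediate progenitors, and 203 and 3 in Setdb1_cKO. Hist1h3e, another H3 member, stood at 70.8 against 7.03 CPM in control. Of the H4 members Hist1h4d had 195 against 21.4 CPM in control (ratio 9.10, 7.55 to 11.1) and 171 against 14.8 CPM in Setdb1_cKO (11.5, 8.55 to 15.9). Each of these members was thus higher in the cycling cells of both libraries by far more than counting error.

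A few members were level or lower in cycling cells. Hist1h2bc, an H2B gene, was nearly level: in intermediate progenitors its ratio of cycling to non-cycling was 1.07 (0.945 to 1.22) in control and 0.95 (0.792 to 1.14) in Setdb1_cKO, at 75.2 to 86.2 CPM. Hist2h2be, another H2B gene, did not differ beyond counting error in control radial glia (ratio 1.05, 0.642 to 1.71), but was higher in cycling control intermediate progenitors, at 13.9 against 3.69 CPM (3.76, 2.31 to 6.39). Hist4h4, an H4 gene, had a ratio of 1.28 (0.594 to 2.79) in control radial glia and 2.35 (1.31 to 4.40) in control intermediate progenitors. Hist3h2ba, the H2B gene of the Hist3 locus, ran the other way. It had 195 CPM in cycling and 408 CPM in non-cycling control intermediate progenitors, a ratio of 0.478 (0.446 to 0.513), and 90.9 against 288 CPM in Setdb1_cKO, a ratio of 0.316 (0.275 to 0.361). Its H2A neighbour Hist3h2a had ratios of 0.506 (0.446 to 0.574) and 0.232 (0.173 to 0.306). In radial glia the ratios were 0.668 and 0.652 for Hist3h2ba and 0.545 and 0.381 for Hist3h2a. Non-cycling intermediate progenitors may include immature neurons that still held Eomes. The part of differentiation in the ratios of the Hist3 pair was not tested. Hist1h2bj, another H2B gene, had 40.4 CPM in cycling and 2.28 CPM in non-cycling control intermediate progenitors.

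**Figure D2:**
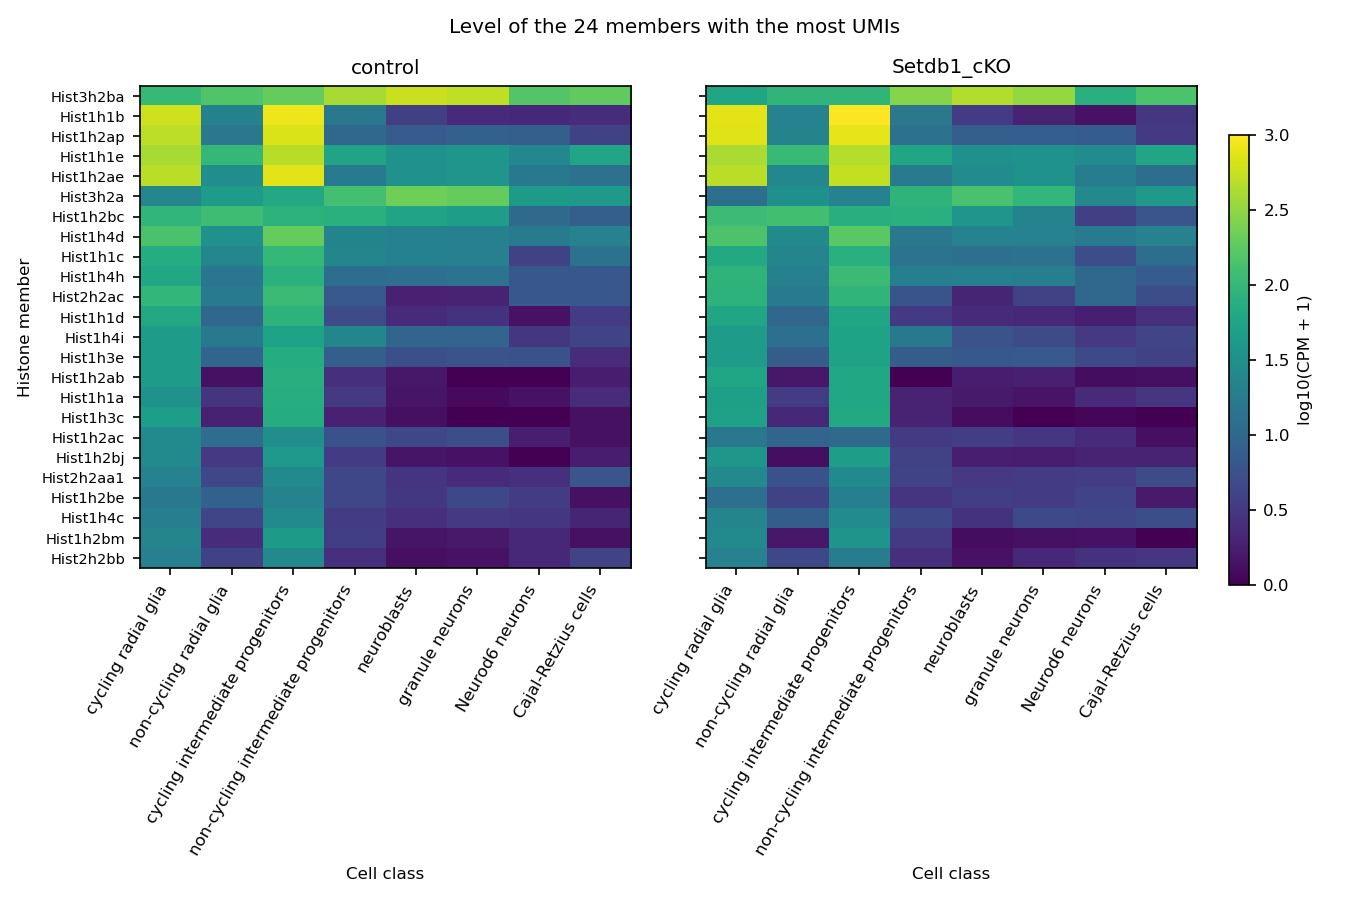
Level of the 24 members with the most UMIs (rows, in order of UMIs) in 8 cell classes (columns), shown as the colour of log10(CPM + 1) for each library. Most members are bright in cycling radial glia and cycling intermediate progenitors alone, whereas Hist3h2ba and Hist3h2a are brightest in neuroblasts and granule neurons.

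Within the cycling classes, histone UMIs sat in a minority of the cells. The median cycling intermediate progenitor held 14 histone UMIs in control and 12 in Setdb1_cKO, while the upper quartile was 72.5 and 86 and the highest cell 246 and 295. The 153 of 615 control and 68 of 272 Setdb1_cKO cells with the most histone UMIs held 65.9% and 72.8% of them. In radial glia the top 142 of 570 and 79 of 316 cells held 74.8% and 76.0%. To place these cells in the cycle, cycling cells were divided by the share of their UMIs from an S phase list (Pcna, Mcm2 and other genes) and from a G2/M list without Mki67 and Top2a, with at least 20 in 10000 UMIs counted as high. That threshold was set after the data had been seen.

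Cells high in both lists held most of the histone UMIs. In control intermediate progenitors they were 270 of 615 cells (43.9%) and held 79.2% of histone UMIs, at 7494 CPM (7392 to 7597) without the Hist3 pair. Cells high in the G2/M list only had 1753 CPM, cells high in the S list only 1282 CPM and cells high in neither 404 CPM. In Setdb1_cKO the values were 7391, 1521, 654 and 374 CPM in that order. Radial glia gave the same order at the ends, with 6137 CPM in control and 6578 CPM in Setdb1_cKO for cells high in both lists and 474 and 535 CPM for cells high in neither. In oligodendrocyte progenitors, cells high in both lists had 5792 and 9044 CPM, from 25 and 15 cells. The Hist3 pair had another order. In control intermediate progenitors it stood at 220 CPM in cells high in both lists and 456 CPM in cells high in neither, and in Setdb1_cKO at 92.8 and 345 CPM. Cells high in both lists were also the deepest (medians of 9877 against 6576 UMIs for neither, in control intermediate progenitors), and the part of depth in this order was not tested.

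**Figure D3:**
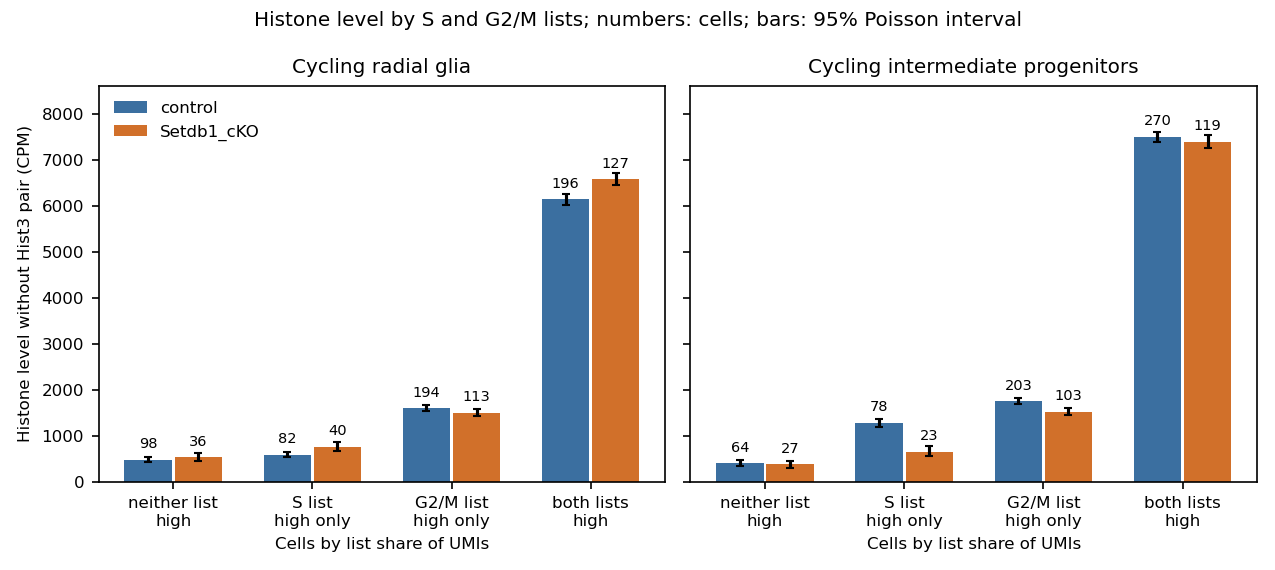
Summed histone level without Hist3h2ba and Hist3h2a, in CPM, of cycling radial glia and cycling intermediate progenitors divided by their share of S list and G2/M list UMIs, with 1 bar per library, 95% Poisson intervals and the number of cells above each bar. Cells high in both lists reach 6137 to 7494 CPM, and no other group exceeds 1753 CPM.

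Progenitors without Mki67 or Top2a can still be in early S phase. Non-cycling intermediate progenitors with at least 5 S list UMIs had 425 CPM of histones without the Hist3 pair in control, against 264 CPM in those with fewer, and 409 against 239 CPM in Setdb1_cKO. In non-cycling radial glia the values were 472 and 472 CPM in control and 502 and 447 CPM in Setdb1_cKO, so there the difference was absent or small.

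The genes that handle histone mRNA and protein were followed as lists chosen with earlier results known. Of 18 measured genes of histone mRNA processing and transcription, 7 were at least 1.5-fold higher in cycling than in non-cycling control intermediate progenitors (13.8% of all measured genes) and none lower (17.4%). In Setdb1_cKO 7 of 17 were higher (15.3%) and 1 lower (16.4%), Lsm10, a subunit of the U7 particle that processes histone mRNA, at 16.7 against 29.3 CPM (0.570, 0.398 to 0.809). Slbp, which binds the stem-loop shown above, stood at 203 against 68.3 CPM (ratio 2.97, 2.65 to 3.34) in control and 193 against 69.0 CPM in Setdb1_cKO. Npat, the coactivator of histone gene transcription, had 38.1 against 22.8 CPM in control. Of 15 histone chaperones 12 were higher and none lower in control and 11 and 0 in Setdb1_cKO, in the same comparisons and against the same shares of all genes. Nasp, a carrier of H3, H4 and H1, stood at 711 against 281 CPM and Asf1b, the H3-H4 chaperone of proliferating cells, at 32.7 against 2.64 CPM in control. Between the libraries, none of the 18 processing genes or 15 chaperones differed by 1.5-fold in cycling radial glia or cycling intermediate progenitors. At the shares of all measured genes given below for these classes, few genes of lists this short would be counted. Some of them did differ by 1.5-fold in cycling astrocytes, oligodendrocyte progenitors and microglia or macrophages.

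Variant histone genes divided by their known coupling to the cell cycle. Of 15 such genes in the files 11 were measured in intermediate progenitors, and 6 in control (13.8% of all measured genes) and 5 in Setdb1_cKO (15.3%) were at least 1.5-fold higher in cycling cells and none lower (17.4% and 16.4%). H2afx, whose protein is phosphorylated at DNA breaks, had 567 against 56.7 CPM in control (ratio 10.0, 8.92 to 11.2) and 464 against 50.4 CPM in Setdb1_cKO. H2afz, the H2A.Z gene, had 4298 against 1219 CPM in control and 4304 against 1032 CPM in Setdb1_cKO. The replacement histone H3.3 genes were nearly level: H3f3b had 4553 against 3899 CPM (ratio 1.17, 1.15 to 1.19) and H3f3a 2561 against 2647 CPM (0.968, 0.946 to 0.990) in control. Control neuroblasts had 3724 CPM of H3f3b and 2771 CPM of H3f3a, close to non-cycling intermediate progenitors and above the 1763 and 1583 CPM of non-cycling radial glia. Between libraries, none of the 11 measured variants differed by 1.5-fold in cycling radial glia, cycling intermediate progenitors or neuroblasts, and 1 of 11 was lower in granule neurons. At the shares of all measured genes given below for these classes, few of 11 genes would be counted.

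Postmitotic cells of the granule lineage kept a substantial histone level, and its make-up was different. Neuroblasts had 1026 CPM in control (12537 UMIs in 2417 cells) and 780 CPM in Setdb1_cKO (9688 UMIs in 2191 cells), both above the non-cycling progenitors of the same library. Granule neurons had 936 and 619 CPM. Without the Hist3 pair, neuroblasts (226 and 197 CPM) and granule neurons (225 and 190 CPM) lay below the non-cycling progenitors. Non-cycling intermediate progenitors then had 322 and 301 CPM and non-cycling radial glia 472 and 464 CPM (control and Setdb1_cKO). The Hist3 pair supplied 78.0% of the histone UMIs of neuroblasts in control (74.7% in Setdb1_cKO) and 76.0% of those of granule neurons (69.4%). In cycling intermediate progenitors the pair supplied 5.77% and 2.68%, and in cycling radial glia 3.94% and 1.94%. By family, H2B made up 62.7% of histone UMIs in neuroblasts of both libraries, against 11.3% in control and 8.41% in Setdb1_cKO cycling intermediate progenitors. The H1 share was 34.8% and 39.1% there and 5.69% and 6.11% in neuroblasts. H3 and H4 members supplied 5.60% and 8.76% of control histone UMIs in cycling intermediate progenitors and 1.14% and 4.71% in neuroblasts. Capture may differ between members, so these shares do not rank the families by their amount of mRNA. Members with a poly(A) signal near an annotated end held 86.1% and 84.3% of histone UMIs in neuroblasts and 29.5% and 22.6% in cycling intermediate progenitors. The Hist3 pair is among these members and supplied most of their UMIs in neuroblasts, so this contrast is not separate from that of the pair.

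Hist3h2ba was ordered along the lineage. In control it had 102 CPM in cycling radial glia, 153 in non-cycling radial glia, 195 in cycling and 408 in non-cycling intermediate progenitors, 582 in neuroblasts and 517 in granule neurons. In Setdb1_cKO the values in that order were 59.0, 90.6, 90.9, 288, 445 and 335 CPM. Cycling intermediate progenitors and non-cycling radial glia thus had nearly the same Setdb1_cKO level, and in both libraries neuroblasts were highest. Hist3h2a had 218 CPM in control neuroblasts and 138 CPM in Setdb1_cKO neuroblasts, against 43.6 and 31.0 CPM in non-cycling radial glia, a control ratio of 5.01 (4.39 to 5.74). Other neurons had less: Hist3h2ba stood at 156 and 78.3 CPM in Neurod6 neurons and 184 and 139 CPM in Cajal-Retzius cells, early-born neurons at the surface of the hippocampus. The pair are neighbours on the plus strand of chromosome 11 in GENCODE vM21 (GRCm38), with Hist3h2ba (ENSMUSG00000056895) at 58948920 to 58949533 and Hist3h2a (ENSMUSG00000078851) at 58954685 to 58956830.

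Compared with non-cycling intermediate progenitors, control neuroblasts had 2 of 21 measured members at least 1.5-fold higher (15.4% of all measured genes) and 11 lower (15.4%). In Setdb1_cKO 3 of 17 were higher (18.6%) and 6 lower (15.3%). The higher members were Hist1h2ae and Hist3h2a in control, with Hist3h2ba added in Setdb1_cKO. Hist1h2ae, so prominent in cycling cells, had 31.5 CPM in control and 27.1 CPM in Setdb1_cKO neuroblasts, above the 15.6 and 16.7 CPM of non-cycling intermediate progenitors. Hist1h1b was lowest in ratio but for Hist2h2ac in control, with 2.70 CPM in neuroblasts (0.181, 0.117 to 0.273). Hist1h2bc had 54.8 CPM in control neuroblasts and 80.3 CPM in non-cycling intermediate progenitors. Compared with non-cycling radial glia, 2 of 22 measured members were higher in control neuroblasts (24.2% of all measured genes) and 16 lower (31.2%), and in Setdb1_cKO 2 of 21 higher (24.9%) and 13 lower (29.9%). The 2 higher members were the Hist3 pair in control. From neuroblasts to granule neurons 1 of 17 was higher in control (5.83%) and 1 lower (2.72%), and in Setdb1_cKO 2 of 22 higher (9.25%) and 2 lower (4.42%). The counts of higher members were thus near the shares of all measured genes, and those of lower members rested on 1 or 2 members.

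Free RNA from broken cells can give any cell a histone UMI, so shares of cells were read against a class low in histones. After each cell was thinned to 2000 UMIs, 88.1% (85.3 to 90.5) of control and 82.7% (77.7 to 87.0) of Setdb1_cKO cycling intermediate progenitors had at least 1 histone UMI. The shares were 84.3% and 75.6% among neuroblasts and 82.4% and 69.2% among granule neurons. In Neurod6 neurons they were 39.1% (31.2 to 47.3) and 31.8% (27.1 to 36.7). Without thinning, 94.7% and 93.5% of the Neurod6 neurons had a histone UMI, at medians of 15626 and 18840 UMIs per cell. Hist1h2ap stood at 7.09 CPM in control Neurod6 neurons and 6.30 CPM in control neuroblasts, and such low levels of the abundant cycling members in neurons were not told apart from free RNA. The Hist3 pair, at 800 CPM in control neuroblasts and 126 CPM in control cycling radial glia, was not at a like level in all classes.

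The library totals were then compared within each class. In cycling cells the summed level was higher in Setdb1_cKO in 6 of the 7 dividing classes and lower in intermediate progenitors: the Setdb1_cKO to control ratio was 1.14 (1.11 to 1.17) in radial glia and 0.920 (0.901 to 0.940) in intermediate progenitors. It was 1.10 (1.05 to 1.16) in astrocytes, 1.24 (1.13 to 1.35) in microglia or macrophages and 1.70 (1.58 to 1.83) in oligodendrocyte progenitors, the last from 116 and 52 cells. On fewer than 50 cycling cells in each library, endothelial cells had a ratio of 1.43 (1.26 to 1.61) and fibroblasts one of 1.91 (1.67 to 2.19). The mix of cycle stages was read alongside, as shares without intervals. Cells high in both lists were 34.4% of control and 40.2% of Setdb1_cKO cycling radial glia. They were 21.6% and 28.8% of the 116 and 52 cycling oligodendrocyte progenitors, and 43.9% and 43.8% of cycling intermediate progenitors. Whether these shares differed between the libraries was not tested. Within the radial glia high in both lists the levels of all members were 6244 and 6638 CPM. The part of this mix in the class ratios was not tested further.

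Among non-cycling cells of the granule lineage the summed level was lower in Setdb1_cKO. The ratio was 0.875 (0.829 to 0.924) in non-cycling radial glia, 0.788 (0.749 to 0.829) in non-cycling intermediate progenitors and 0.760 (0.740 to 0.781) in neuroblasts. Granule neurons had the lowest of these ratios, 0.662 (0.639 to 0.686). The drop was not particular to this lineage. The ratio was 0.764 (0.654 to 0.893) in non-cycling microglia or macrophages and 0.744 (0.650 to 0.851) in non-cycling fibroblasts. It was 0.947 (0.903 to 0.994) in non-cycling astrocytes, 1.12 (0.961 to 1.29) in non-cycling oligodendrocyte progenitors and 1.84 (1.48 to 2.28) in non-cycling endothelial cells. In the granule lineage the Hist3 pair carried most of the difference. Without it the ratio was 0.982 (0.923 to 1.05) in non-cycling radial glia, 0.934 (0.863 to 1.01) in non-cycling intermediate progenitors, and below 1 with the whole interval in neuroblasts, at 0.873 (0.826 to 0.922), and granule neurons, at 0.845 (0.787 to 0.907). In Neurod6 neurons the ratio of all members, 0.749 (0.688 to 0.816), was 1.003 (0.892 to 1.13) without Hist3h2ba and 1.16 (1.01 to 1.33) without the pair. The ratio of the pair itself was 0.618 (0.551 to 0.692) in non-cycling radial glia, 0.70 (0.654 to 0.749) in non-cycling intermediate progenitors, 0.729 (0.707 to 0.751) in neuroblasts, 0.604 (0.579 to 0.630) in granule neurons and 0.524 (0.468 to 0.587) in Neurod6 neurons. The pair was lower in cycling cells as well, at 0.562 (0.479 to 0.658) in radial glia and 0.428 (0.380 to 0.481) in intermediate progenitors. In oligodendrocyte progenitors the pair did not differ beyond counting error, with ratios of 1.04 (0.749 to 1.43) in cycling and 1.02 (0.814 to 1.27) in non-cycling cells. Setdb1 in those cycling cells had 38 control and 26 Setdb1_cKO UMIs, a ratio of 1.15 (0.668 to 1.94). In non-cycling microglia or macrophages the pair had a ratio of 0.594 (0.427 to 0.824), at a Setdb1 ratio of 1.05 (0.701 to 1.58). In cycling microglia or macrophages it was 0.988 (0.592 to 1.64), at a Setdb1 ratio of 0.684 (0.364 to 1.26). In non-cycling fibroblasts the pair had a ratio of 0.643 (0.486 to 0.846), at a Setdb1 ratio of 1.06 (0.661 to 1.72). In non-cycling astrocytes the pair had a ratio of 0.922 (0.827 to 1.03) at a Setdb1 ratio of 0.339 (0.268 to 0.425). In cycling astrocytes the pair had a ratio of 0.543 (0.401 to 0.726) at a Setdb1 ratio of 0.367 (0.221 to 0.585). Differences between classes in these ratios were not tested.

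In cycling radial glia 2 of 43 measured members were at least 1.5-fold higher in Setdb1_cKO (4.9% of all 10870 measured genes) and 6 lower (9.72%). The higher ones were Hist1h2ai, with 17 control and 26 Setdb1_cKO UMIs, and Hist1h4a, with 30 and 35. That count was 9 under a stricter cell filter. The lower ones were Hist3h2ba, Hist3h2a, Hist1h2ac, Hist1h2bn, Hist2h4 and Hist1h2af. Hist1h2ac, an H2A gene, had 25.5 CPM in control and 14.8 CPM in Setdb1_cKO (ratio 0.580, 0.402 to 0.824). Just below the 1.5-fold limit, Hist1h2ap had 506 and 722 CPM (1.43, 1.34 to 1.51), Hist1h4h 59.99 and 88.6 CPM (1.48, 1.24 to 1.75) and Hist1h1a 32.8 and 48.5 CPM (1.48, 1.17 to 1.87). Hist1h1b had 601 and 760 CPM (1.26, 1.20 to 1.34), and Hist1h2ae was level at 494 and 488 CPM (0.988, 0.925 to 1.06).

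In cycling intermediate progenitors 1 of 48 measured members was higher (4.45% of all measured genes) and 8 lower (8.21%). The higher one, Hist2h2ab, rested on 19 and 15 UMIs. Hist3h2a had the lowest ratio, 64.5 against 20.2 CPM (0.314, 0.237 to 0.411). Hist2h2be followed at 13.9 against 4.497 CPM (0.324, 0.170 to 0.575) and Hist1h2ac at 28.7 against 9.96 CPM (0.347, 0.228 to 0.510). Hist2h4 (0.350) and Hist1h3g (0.396) came next on 33 and 34 control and 6 and 7 Setdb1_cKO UMIs, then Hist1h3d at 22.9 against 9.64 CPM (0.421, 0.274 to 0.629). Hist1h2ae, level in radial glia, had 753 CPM in control and 524 CPM in Setdb1_cKO here (0.696, 0.657 to 0.737), within the 1.5-fold limit. Hist1h1d, a linker histone, had 85.7 and 57.8 CPM (0.675, 0.566 to 0.801), while Hist1h1e had 472 and 467 CPM (0.989, 0.928 to 1.05). Hist1h4h was again on the high side at 82.2 and 111 CPM (1.35, 1.17 to 1.55). Members of 1 family thus differed from each other, with Hist1h2ap at 1.15 (1.09 to 1.21) and Hist1h2ac at 0.347 among the H2A genes.

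In neuroblasts 1 of 21 measured members was higher in Setdb1_cKO (6.23% of all measured genes) and 4 lower (5.74%). The higher one was Hist1h4h, an H4 gene with the stem-loop and a poly(A) signal, which stood at 11.6 CPM (control) and 19.8 CPM (Setdb1_cKO), a ratio of 1.70 (1.38 to 2.11). The lower ones were Hist3h2a (218 and 138 CPM, 0.630, 0.592 to 0.670), Hist1h2bc (54.8 and 36.4 CPM, 0.664, 0.588 to 0.749), Hist1h1c (19.96 and 11.9 CPM, 0.597, 0.483 to 0.735) and Hist1h4i (8.43 and 4.91 CPM, 0.583, 0.417 to 0.808). Hist3h2ba, at 582 and 445 CPM, had a ratio of 0.766 (0.739 to 0.793). Hist1h1e stood at 33.9 and 31.4 CPM and Hist1h4d at 19.96 and 20.5 CPM, with intervals that included 1.

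Granule neurons had 3 of 19 measured members higher (7.81% of all measured genes) and 7 lower (6.49%). All 4 members that were lower in neuroblasts were lower here too: Hist3h2a at 195 and 95.1 CPM (0.489, 0.449 to 0.532), Hist1h2bc at 45.6 and 20.9 CPM (0.459, 0.384 to 0.549), Hist1h4i at 8.41 and 3.89 CPM, and Hist1h1c at 19.2 and 12.1 CPM. Hist3h2ba joined them at 517 and 335 CPM (0.647, 0.617 to 0.680), with Hist1h2ac and Hist2h2be on fewer UMIs. The higher members were Hist2h2ac, Hist1h4c and Hist2h2aa1, with 5, 11 and 7 control UMIs. Hist1h4h, at 12.7 and 18.9 CPM, had a ratio of 1.49 (1.13 to 1.99). The gate for granule neurons kept 743 control and 1550 Setdb1_cKO cells. Within each library granule neurons had less Hist3h2ba than neuroblasts, by a ratio of 0.889 (0.849 to 0.929) in control and 0.751 (0.722 to 0.782) in Setdb1_cKO.

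**Figure D4:**
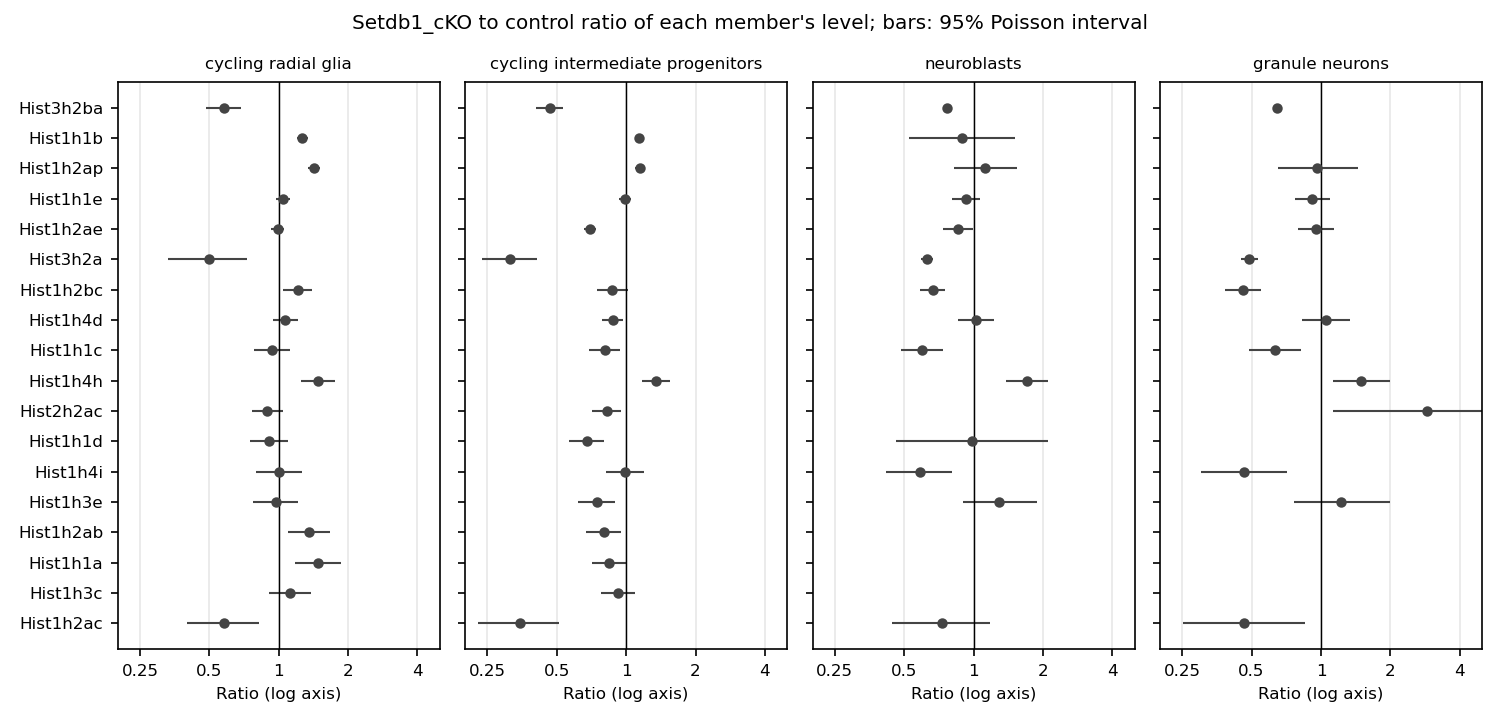
Setdb1_cKO to control ratio of the level of the 18 members with the most UMIs (rows) in 4 cell classes, on a log axis, with 95% Poisson intervals and a line at 1; members under 30 UMIs in a class are not drawn. Hist3h2ba and Hist3h2a lie left of the line in all 4 classes and Hist1h4h lies right of it, while Hist1h2bc lies left of it in the neuron classes and at 1.21 in cycling radial glia.

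In the smaller lineages more members were higher than lower in cycling cells of Setdb1_cKO, astrocytes apart. Of 16 measured members in cycling oligodendrocyte progenitors 9 were at least 1.5-fold higher (7.19% of all measured genes) and 1 lower (7.33%). The 29 of 116 control and 13 of 52 Setdb1_cKO cells with the most histone UMIs held 81.9% and 88.9% of them. These members thus rest on few cells, and the intervals below do not cover the spread between cells. Hist1h1b had 375 CPM in control and 825 CPM in Setdb1_cKO (2.20, 1.87 to 2.60) and Hist1h2ap 371 and 810 CPM (2.19, 1.85 to 2.59). In cycling microglia or macrophages 5 of 14 were higher (6.85%) and none lower (8.86%), led by Hist1h4h with 17 and 32 UMIs (2.03, 1.10 to 3.90). In cycling astrocytes 2 of 23 were higher (6.63%) and 5 lower (7.18%), with Hist1h2ap at 1.53 (1.34 to 1.76) and Hist3h2ba at 0.502 (0.345 to 0.720). Outside the cycling cells 3 of 26 members were higher in Setdb1_cKO astrocytes (8.52%) and 6 lower (5.41%), none of 4 in oligodendrocyte progenitors in either direction (6.49% of all genes higher and 6.65% lower), and none of 5 higher (5.69%) and 2 lower (8.69%) in microglia or macrophages.

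In the remaining neural classes few members were measured. In non-cycling radial glia 1 of 20 was higher in Setdb1_cKO (5.03% of all measured genes) and 4 lower (7.36%), Hist3h2ba among them at 153 and 90.6 CPM. In non-cycling intermediate progenitors 1 of 14 was higher (4.12%), Hist1h4h with a ratio of 1.71, and 2 lower (9.27%), Hist1h1c and Hist1h2ac. Of 12 measured in Neurod6 neurons 3 were higher (6.41%) and 3 lower (9.35%). The higher ones, Hist2h2ac, Hist1h4h and Hist1h4c, had 14, 14 and 5 control UMIs and intervals that included 1. The lower ones, the Hist3 pair and Hist1h2bc, had intervals below 1. Among 8 measured in Cajal-Retzius cells none differed by 1.5-fold in either direction (5.39% of all genes higher and 4.17% lower). Hist1h4h was on the high side in every neural, oligodendrocyte and microglial class where it was measured. Its ratio ran from 1.16 (0.572 to 2.40) in Cajal-Retzius cells through 1.89 (1.33 to 2.71) in non-cycling astrocytes to 2.03 in cycling microglia or macrophages. The interval included 1 in Cajal-Retzius cells and also in Neurod6 neurons, at 1.68 (0.940 to 3.24). Some other classes rested on few Hist1h4h UMIs, such as cycling oligodendrocyte progenitors with 27 in control and 25 in Setdb1_cKO. Hist1h2bc had its lowest ratio in Neurod6 neurons, with 25 control and 20 Setdb1_cKO UMIs (0.270, 0.142 to 0.505).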

How the data were processed

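Single-cell 3′ libraries of dissociated dentate gyrus at postnatal day 5 were compared, 1 control and 1 Setdb1_cKO. The deposited values are raw UMI counts per gene and barcode from Cell Ranger 7.1.0, the version in the deposited file headers. The submitters' processing notes name this program too, with Seurat and mm10. The annotation release, the use of intronic reads and the cell calling are not stated in those sources. Any reads mapping to several histone copies are handled by that counting.

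Cells with at least 1000 UMIs, 500 genes and at most 10% mitochondrial UMIs were kept, and doublets called by Scrublet in each library (expected rate 8%) were removed: 598 of 11414 control and 532 of 9956 Setdb1_cKO cells. Classes were set by summed marker UMIs, with thresholds set after marker UMIs had been seen; the main ones were Eomes at least 2 UMIs for intermediate progenitors, Slc1a3+Hes5+Sox9 at least 8 for radial glia and astrocytes, and Dcx+Stmn2+Neurod1 at least 5 for neurons. Neurons passing the cycling gate (152 control and 167 Setdb1_cKO cells) were left out. The thresholds of the S and G2/M lists, 20 in 10000 UMIs, and the cycling gate on thinned cells were chosen after seeing the data. UMIs were summed per class and library and scaled to CPM. Ratios carry exact conditional Poisson intervals, levels exact Poisson intervals and shares Clopper-Pearson intervals. Each was set at 95% and covers counting error alone. Counts past 1.5-fold were made on levels with 0.5 UMI added to each side, for all genes with at least 30 UMIs over both sides. With 1 library per genotype no test was made. Depth was 82393428 control and 87845965 Setdb1_cKO UMIs. The counting script was tested on simulated data. Alternatives covered cell filters, doublets, gates, scaling, pseudocount, thinning and thresholds.

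Members, lists and rules were chosen with earlier results of these data known. Named with values were members with at least 100 UMIs, members at the ends of a class's ratios, testis and Hist3 or Hist4 genes, gate markers and a few genes per list. GENCODE vM21 (GRCm38) matched 32235 of 32285 identifiers. Software was Python 3.11.15, numpy 2.4.6, scipy 1.17.1, pandas 2.3.3, scanpy 1.11.5 and matplotlib 3.10.9.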

Additional observations from a re-analysis of the deposited data

Results flagged for a closer look

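Among cycling cells the Setdb1_cKO to control ratio of the summed histone level lay on either side of 1, with intervals for counting error that did not overlap 1. It was 1.14 in radial glia, 1.10 in astrocytes, 1.24 in microglia or macrophages and 1.70 in oligodendrocyte progenitors, but 0.920 in intermediate progenitors. Endothelial cells, at 1.43, and fibroblasts, at 1.91, had fewer than 50 cycling cells in each library. With 1 library per genotype the difference between these classes was not tested. Hist1h1b, a linker histone, and Hist1h2ap, an H2A gene, had ratios of 1.26 and 1.43 in radial glia and of 1.14 and 1.15 in intermediate progenitors. The ratio of Hist1h2ae, another H2A gene, was 0.988 in the former and 0.696 in the latter.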

How the results depend on the processing

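Of 56 results under 14 alternatives, 439 values stayed within their counting interval or within 1.5 times the count, 84 moved and 1 changed direction. Keeping doublets, rescaling without mitochondrial, haemoglobin and histone UMIs, and a pseudocount of 1 UMI moved none. The change of direction was the Setdb1_cKO to control ratio of Neurod6 neurons, 0.749 with all members and 1.003 without Hist3h2ba, the member of highest level there. Leaving out the highest member gave ratios of 1.11 and 0.959 in cycling and non-cycling radial glia, 0.870 and 0.864 in cycling and non-cycling intermediate progenitors and 0.96 in Cajal-Retzius cells. The ratios of cycling to non-cycling cells were then 4.01 and 5.11 in radial glia, and in intermediate progenitors 4.35 and 4.82 (control and Setdb1_cKO). A cycling gate of 2 UMIs gave 5.94 and 7.14 in radial glia, and in intermediate progenitors 5.93 and 6.85, a Setdb1_cKO to control ratio of 1.07 in cycling radial glia, 0.375 for the Hist3 pair in cycling intermediate progenitors, 0 members higher there, and 2 members lower in cycling than in non-cycling control radial glia. The gate on thinned cells, chosen after seeing the data, gave cycling to non-cycling ratios of 5.42 and 6.68 in radial glia and 5.76 in control intermediate progenitors. Its Setdb1_cKO to control ratios were 0.943 in non-cycling radial glia, 0.866 and 0.842 in cycling and non-cycling intermediate progenitors and 0.377 for the Hist3 pair in the cycling ones, with 4 members higher in cycling radial glia, 0 higher in cycling intermediate progenitors, and 91.3% of those control cells with a histone UMI. The stricter cell filter gave 1.21 in cycling radial glia with 9 members higher, 0.875 in cycling intermediate progenitors, a cycling to non-cycling ratio of 6.58 in Setdb1_cKO radial glia and 2 members lower in control. Gates with 1 more UMI gave 0.882 in cycling intermediate progenitors with 14 members lower, 0.653 for the Hist3 pair in non-cycling ones and 5.45 for cycling to non-cycling control cells. A mean over cells gave 0.874 in cycling intermediate progenitors with 0 members higher, 6 members higher in cycling radial glia, 1 lower in cycling Setdb1_cKO radial glia than in non-cycling ones, and cycling to non-cycling ratios of 4.27 and 5.73 in radial glia, and in intermediate progenitors 5.04 and 5.52. With members measured at 10 UMIs, 8 were higher in Setdb1_cKO cycling radial glia, 4 in cycling intermediate progenitors, 5 in granule neurons and 3 in neuroblasts, where 9 were lower. At 2-fold, 1, 0, 1 and 0 were higher in these classes, 0 lower in cycling radial glia and in neuroblasts, and in cycling against non-cycling cells 0 and 1 were lower in control and Setdb1_cKO radial glia and 1 in control intermediate progenitors. The looser filter gave 73.7% of Setdb1_cKO neuroblasts with a histone UMI. Without thinning, the shares in control and Setdb1_cKO were 99.7% and 99.6% of cycling and 97.6% and 96.9% of non-cycling intermediate progenitors, 96.8% and 94.5% of neuroblasts and 94.7% and 93.5% of Neurod6 neurons. At 3000 UMIs they were 95.1% and 88.6%, 89.9% and 84.5%, 93.8% and 86.6%, and 52.0% and 49.2%. The causes of these shifts were not tested. No paired analysis was possible because there is 1 library per genotype and the labels give no replicate numbers. Cells are not replicates, so spread between animals is unknown here, and classes rebuilt from markers may differ from the study's own. Members with few UMIs have wide intervals.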

Other observations

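Cells outside the compared classes carried histone UMIs as well. GABAergic neurons, gated by Gad1+Gad2+Slc32a1+Dlx1, had 1419 CPM in control, from 29 cells of which 44.8% passed the cycling gate, and 501 CPM in Setdb1_cKO, from 62 cells of which 6.45% passed it. The Hist3 pair supplied 19.2% of their histone UMIs in control and 54.1% in Setdb1_cKO. Ependymal cells had 788 CPM (14 cells) and 1060 CPM (63 cells), and erythroid cells, gated by haemoglobin UMIs, 966 CPM (25 cells) and 452 CPM (28 cells). The 1718 control and 1321 Setdb1_cKO cells that met no gate had 1259 and 1076 CPM, with 20.6% and 16.5% of them passing the cycling gate and 33.2% and 22.2% of their histone UMIs from the Hist3 pair.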
